A study of Mus musculus with 7 samples.

Results

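The 43 genes described here encode interstitial collagens, proteoglycans, matrix glycoproteins and elastic fibre components, together with enzymes and a chaperone that act on collagen. They were taken by symbol from a list, and all 43 were found among the 23955 genes of a table of raw read counts. RNA had been sequenced from 7 lines of mouse esophageal epithelial cells grown on plastic in KSFM, a serum-free keratinocyte medium. The 3 mutant lines (mutant 1, mutant 2 and mutant 3) carry p53R172H, a missense allele of the tumour suppressor p53, and the label 4NQO, the carcinogen 4-nitroquinoline 1-oxide. The 2 null lines (null 1 and null 3) are p53-/- and also carry the label 4NQO. The 2 WT lines (WT 1 and WT 2) are wild type and carry no treatment label. All 7 lines have a mixed strain background. Against WT, genotype and the 4NQO label cannot be told apart, whereas mutant and null lines share that label. The labels do not say whether a line is 1 clone, from which animal or age it came, or what controls the p53 alleles, so the p-values cover no more than the variation among the 7 lines, which may be technical.

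Interstitial collagens are secreted by mesenchymal cells, above all fibroblasts. Their chains are hydroxylated in the endoplasmic reticulum, wind into trimers there with the help of the chaperone Hsp47, are trimmed outside the cell and are crosslinked by lysyl oxidases. Type V collagen starts fibrils of types I and III, small leucine-rich proteoglycans limit their width, and fibronectin gives the first scaffold on which collagen and fibrillin are laid down. Stratified epithelium such as that of the esophagus rests on this stroma and itself makes mainly basement membrane proteins.

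Total counts ran between 12751118 (WT 2) and 47000225 (mutant 1), and levels are given as CPM, read counts brought to a common library total after edgeR's TMM scaling (trimmed mean of M values). A gene at 1 CPM thus rests on a smaller number of reads in WT 2 than in any other line. Trp53 stood at 172 to 254 CPM in mutant lines, 4.71 and 8.73 CPM in null lines, and 193 and 212 CPM in WT lines. The keratinocyte genes Krt5 (2035 to 4214 CPM in the 5 mutant and null lines, 13830 and 21400 CPM in WT lines) and Trp63 (168 to 441 CPM over the 7 lines) were present in every line. Xist was at most 0.964 CPM in the mutant and null lines, against 675 and 1652 CPM in the WT lines, so this gene of the inactive X chromosome also separates WT from the rest, which cannot be told apart from genotype. The Y-linked gene Ddx3y had 67.4 to 77.0 CPM in mutant lines, 0.0304 and 96.4 CPM in null 1 and null 3, and 0.987 and 0.0812 CPM in WT 1 and WT 2, so the 2 null lines differ in it too.

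The level of many matrix genes differed widely between lines of the same genotype. Many were abundant in mutant 1, mutant 3 and null 3 and close to 0 in mutant 2, null 1 and both WT lines. A gene was counted as high in a line when it had at least 5 CPM there and at least 4-fold the level of the higher WT line. By that rule 22 of 43 genes were high in mutant 1, 6 in mutant 2, 19 in mutant 3, 1 in null 1 and 24 in null 3. Over all 13768 genes tested, the same rule held for 4.29%, 2.02%, 3.04%, 1.42% and 4.22% of genes in mutant 1, mutant 2, mutant 3, null 1 and null 3. The median log2 ratio of the 43 genes to the WT mean, with 0.5 CPM added to both, was 3.12 in mutant 1, 0 in mutant 2, 2.21 in mutant 3, -0.05 in null 1 and 3.60 in null 3. For all genes tested that median lay between 0.01 and 0.04 in the 5 lines. The mutant and the null group thus each held 1 line with a median near the WT level.

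**Figure D1:**
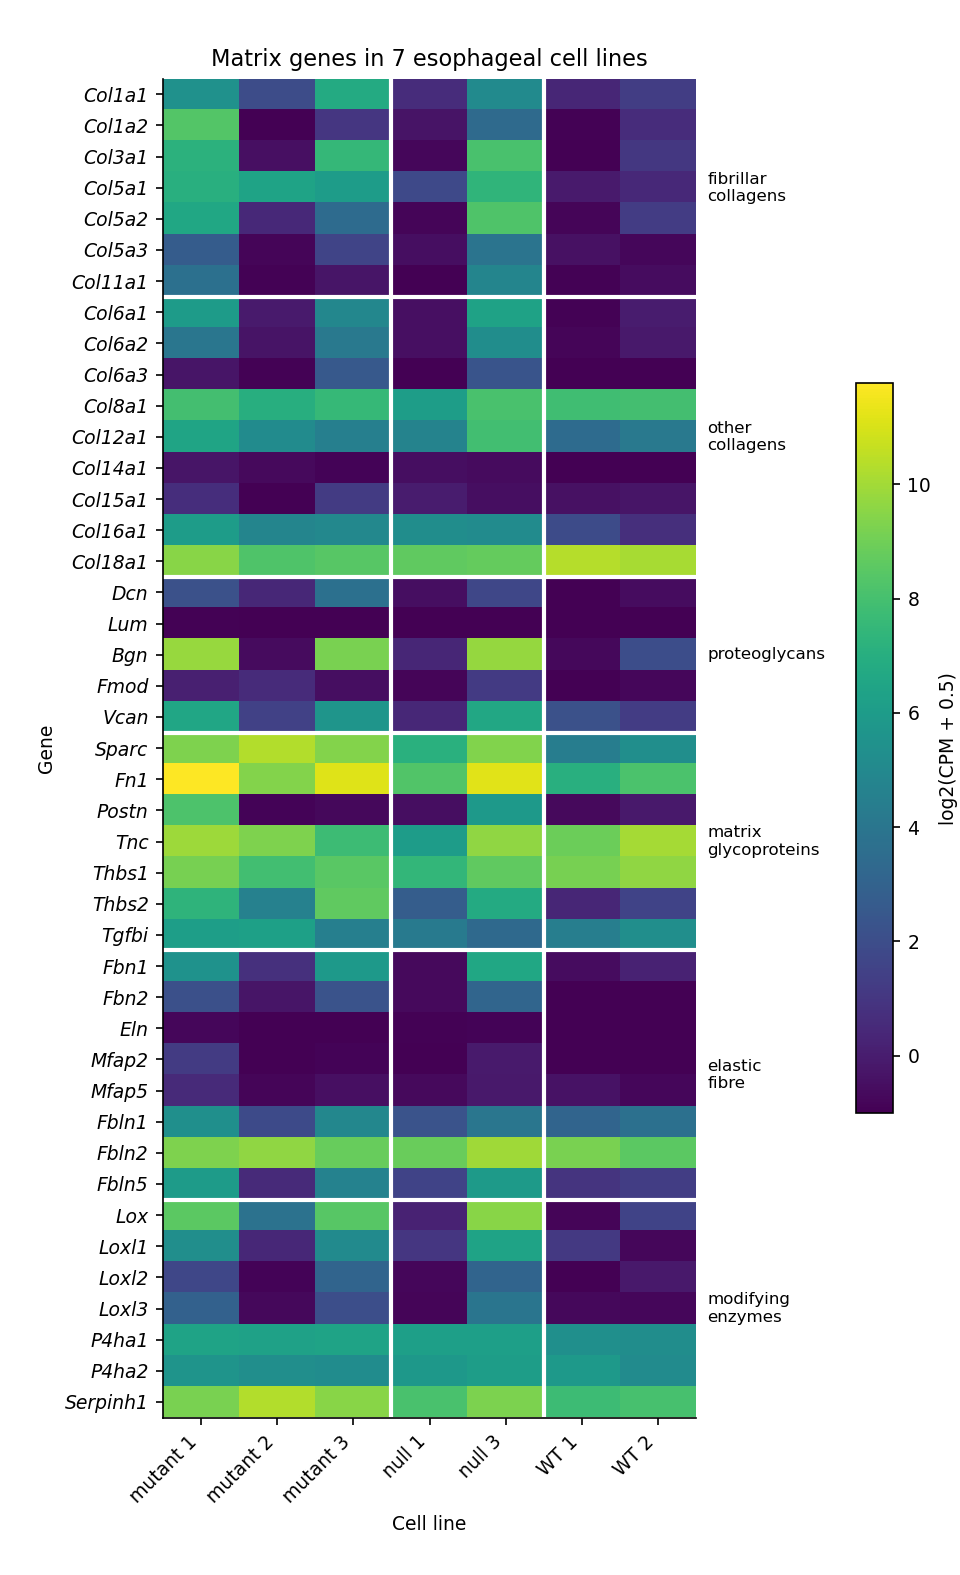
Level of each of the 43 matrix genes in the 7 lines, as log2 of CPM plus 0.5, with genes in rows by role and lines in columns. Mutant 1, mutant 3 and null 3 hold high values for Col3a1, Col6a1, Bgn, Vcan, Lox and Loxl1, while mutant 2 and null 1 are far lower for these genes.

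The difference between lines of 1 genotype was wide. Mutant 2 was the lowest mutant line for 31 of 43 genes (72.1%, against 32.4% of all genes tested), and null 1 lay below null 3 for 37 of 43 (86%, against 50.1%). Counting genes with at least 5 CPM in the higher line, null 1 was at least 10-fold below null 3 for 21 of 43 (48.8%, against 2.48% of all genes tested). Mutant 2 was at least 10-fold below mutant 1 for 17 of 43 (39.5%, against 2.3%) and below mutant 3 for 15 of 43 (34.9%, against 0.915%). Mutant 3 was at least 10-fold below mutant 1 for the 3 genes Col1a2, Col11a1 and Postn (6.98%, against 1.18%). In bulk RNA, fewer cells of a type and less RNA per cell cannot be told apart.

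Against WT the mutant lines had a median log2 fold change of 4.52 over the 40 matrix genes that passed the filter on low counts, and 35 of 40 had a value above 0. All 13768 genes tested had a median of 0.08, and 54.4% were above 0. With Col6a3, Fbn2 and Mfap2, which had no count in WT, set to the bound that 3 counts over the group allow, the median of the matrix genes was 4.28. Log2 fold changes above 2 were found for 27 of 40, against 9.96% of all genes. Only 3 of the 40 passed the test (edgeR's quasi-likelihood test, Benjamini-Hochberg adjusted p under 0.05 over all genes), all of them higher: Sparc, Col16a1 and P4ha1. That is 7.5% of the members, beside 7.42% of all genes called in either direction, 3.3% called higher and 4.13% called lower, so the number of edgeR calls is near the background. DESeq2 called 18 of the 37 members it gave an adjusted p (48.6%), beside 23.8% of all genes, and limma-voom 2 of 40 (5%), beside 5.4%. At an unadjusted p under 0.05 there were 12 of 40, beside 30.5% of all genes. All mutant lines lay above both WT lines for 15 of 40 members and below both for 2, beside 26.9% and 25.7% of all genes. Leaving out mutant 2 or mutant 3 ended all 3 calls, with 37 and 6 genes called in all. At an unadjusted p under 0.05 there were then 23 and 9 members, beside 3493 and 3187 genes in all. Without mutant 1, 5 members passed, beside 1420 genes. Fits without a WT or a null line are given below.

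Null lines against WT gave a median log2 fold change of 4.38 over the 40 genes (4.16 with the 3 genes at their bound), beside 0.06 for all genes. Values above 0 were seen for 34 of 40, beside 53.6% of all genes, and values above 2 for 28 of 40, beside 10.2%. No member passed the edgeR test, beside 0.138% of all genes called. An unadjusted p under 0.05 was found for 10 of 40, beside 20.2% of all genes. Both null lines lay above both WT lines for 11 of 40 and below both for 3, beside 29.1% and 27.1% of all genes. DESeq2 called 13 of 36 (36.1%), beside 11.8% of all genes. Limma-voom called 0 of 40, beside 0% of all genes, with 5 members at its unadjusted p under 0.05, beside 2155 of 13768 genes. Both comparisons use the same WT lines, so their values are not independent.

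Between mutant and null lines the differences were small in the median, and each group held high and low lines. The median log2 fold change of mutant over null was 0.15 for the matrix genes and 0.02 for all genes, with 21 of 40 above 0 and 1 above 2, beside 51.3% and 1.95% of all genes. No member passed the edgeR test, which called 0% of all genes. One gene, Tgfbi, had an unadjusted p under 0.05, beside 14% of all genes, and DESeq2 called it, 1 of 35 members beside 4.69% of all genes. Limma-voom called none, beside 0% of all genes, with 2 members at its unadjusted p under 0.05, beside 2112 of 13768 genes. Mutant lines all lay above null lines for 2 of 40 genes and all below for 1, beside 16% and 15.1% of all genes.

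**Figure D2:**
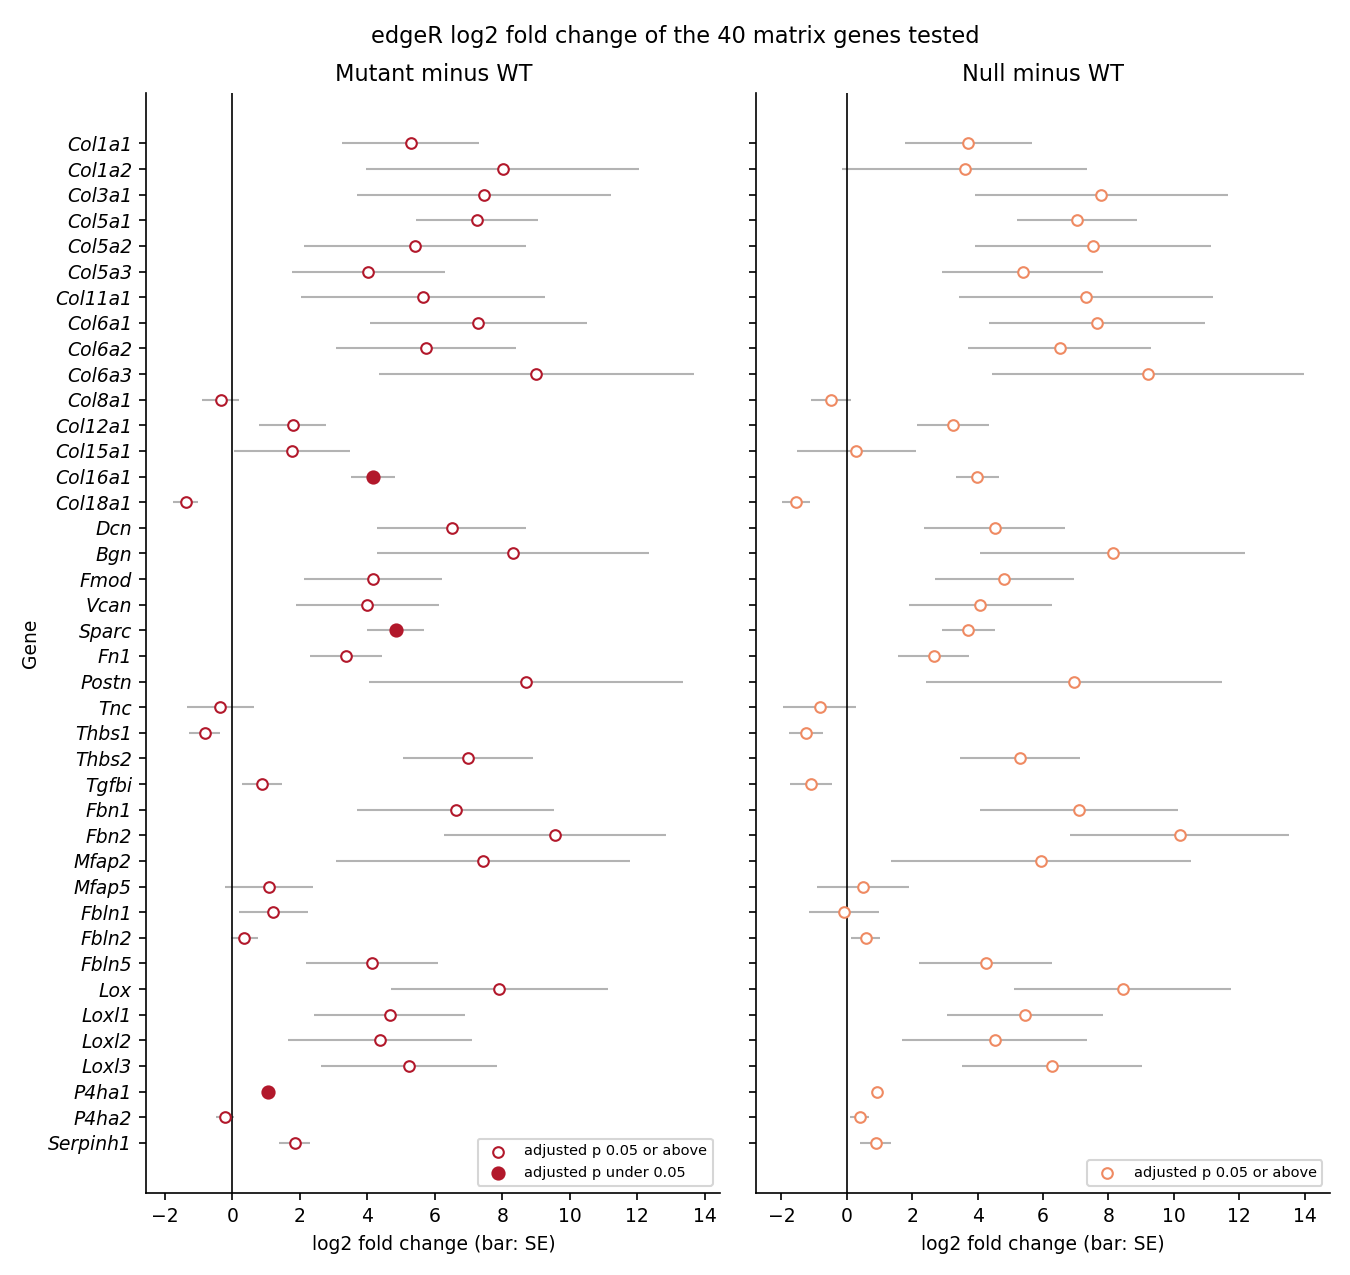
Log2 fold change of each tested matrix gene for mutant minus WT and null minus WT, with bars of 1 standard error and genes ordered by role. Filled points passed an adjusted p of 0.05, which only Sparc, Col16a1 and P4ha1 did, in mutant minus WT, and the widest bars belong to genes that are near 0 in mutant 2 or null 1.

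The 3 genes that rose in mutant lines were above both WT lines in every mutant and null line. Col16a1, a fibril-associated collagen, had 67.2, 27.4 and 30.2 CPM in mutant 1, 2 and 3, 37.7 and 35.7 CPM in null 1 and 3, and 3.33 and 1.14 CPM in WT 1 and 2. Its mean was 41.6 ± 22.2 CPM in mutant lines (SD, n = 3), against 2.23 ± 1.55 CPM in WT lines (n = 2), giving 4.17 for mutant minus WT on the log2 scale (standard error, SE, 0.644, edgeR adjusted p = 0.0253). For null minus WT the value was 3.99 (SE 0.658, edgeR adjusted p = 0.0818).

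Sparc, a collagen-binding glycoprotein that fibroblasts and many remodelling tissues secrete, had 627, 1265 and 666 CPM in mutant 1, 2 and 3, 135 and 644 CPM in null 1 and 3, and 20.6 and 39.1 CPM in WT 1 and 2. Mutant 2, low for most of the matrix genes, had the highest Sparc of the 7 lines. The log2 fold change of mutant minus WT was 4.84 (SE 0.837, edgeR adjusted p = 0.0306), and that of null minus WT was 3.71 (SE 0.813, edgeR adjusted p = 0.112), or 2.19 without null 3.

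P4ha1, a catalytic subunit of prolyl 4-hydroxylase, differed least in size and was the most even within groups. It had 85.4, 77.7 and 84.9 CPM in mutant lines, 74.3 CPM in both null lines, and 40.7 and 38.4 CPM in WT lines. The mutant mean was 82.7 ± 4.34 CPM (SD, n = 3) and the WT mean 39.5 ± 1.61 CPM (n = 2), which is 1.06 on the log2 scale (SE 0.138, edgeR adjusted p = 0.0212). Null minus WT gave 0.91 (SE 0.147, edgeR adjusted p = 0.0812). Mutant minus null was 0.15 for P4ha1 (SE 0.134), 0.18 for Col16a1 (SE 0.525) and 1.13 for Sparc (SE 0.689), with edgeR adjusted p of 0.624, 0.903 and 0.484.

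**Figure D3:**
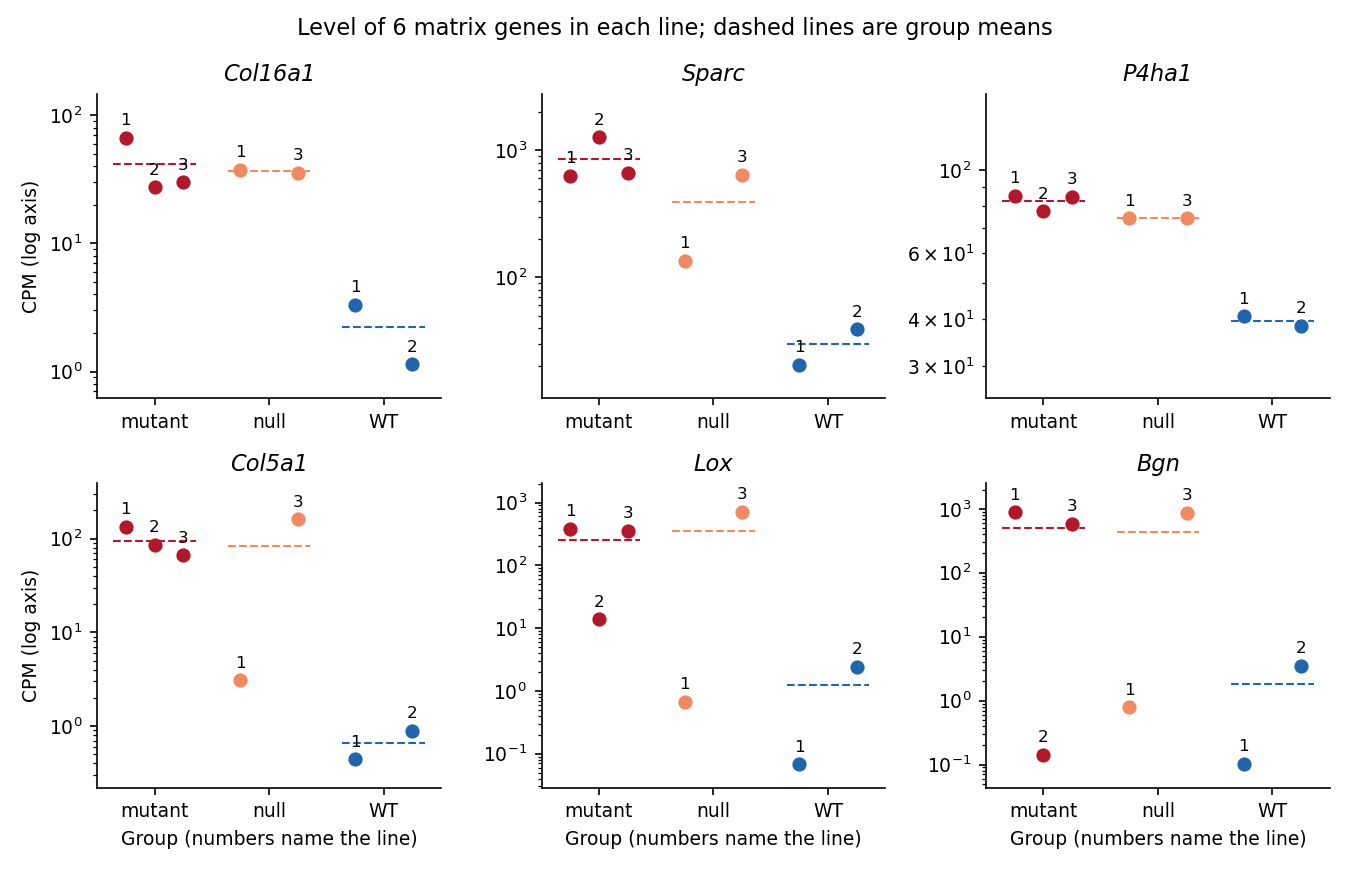
CPM of Col16a1, Sparc, P4ha1, Col5a1, Lox and Bgn in each line on log axes of different ranges, with 1 point per line, its number beside it, and a dashed line at each group mean. Col16a1 and P4ha1 are above both WT lines in all 5 mutant and null lines, whereas Lox and Bgn span over 10-fold within both the mutant and the null lines.

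The promoters of these 3 genes are shown with those of Col3a1 and Bgn, which were near 0 in mutant 2 and null 1. Each window runs from 250 bases before to 50 bases after the start of the gene (RefSeq, build GRCm38.p6, written 5′ to 3′ on the gene's own strand), and capitals mark matches on either strand to the TATA box TATAAA, to the CCAAT box, and to the E-box CACCTG, which Zeb and Snail factors bind. Matches were marked wherever they fell in the window, so a marked TATAAA is a sequence match and not a located TATA box. That of P4ha1 lies after the start of the gene.
Col16a1 (chr4:130047590-130047889, plus strand): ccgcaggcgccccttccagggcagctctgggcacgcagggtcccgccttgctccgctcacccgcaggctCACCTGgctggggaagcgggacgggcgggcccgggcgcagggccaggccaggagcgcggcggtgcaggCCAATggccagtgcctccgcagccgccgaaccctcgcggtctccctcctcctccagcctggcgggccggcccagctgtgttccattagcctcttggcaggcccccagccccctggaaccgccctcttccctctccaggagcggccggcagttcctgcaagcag
Sparc (chr11:55420031-55420330, minus strand): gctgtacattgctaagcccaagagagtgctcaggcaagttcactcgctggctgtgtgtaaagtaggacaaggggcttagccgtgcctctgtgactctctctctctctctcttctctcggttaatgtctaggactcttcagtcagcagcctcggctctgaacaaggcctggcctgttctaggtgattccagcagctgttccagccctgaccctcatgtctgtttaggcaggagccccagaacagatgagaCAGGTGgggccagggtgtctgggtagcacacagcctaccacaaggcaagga
P4ha1 (chr10:59323046-59323345, plus strand): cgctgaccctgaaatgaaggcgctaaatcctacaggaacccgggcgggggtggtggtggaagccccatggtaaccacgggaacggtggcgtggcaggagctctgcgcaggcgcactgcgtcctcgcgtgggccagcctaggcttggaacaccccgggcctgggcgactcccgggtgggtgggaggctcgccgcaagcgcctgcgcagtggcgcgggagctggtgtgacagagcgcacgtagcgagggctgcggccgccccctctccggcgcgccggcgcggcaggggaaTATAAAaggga
Col3a1 (chr1:45311288-45311587, plus strand): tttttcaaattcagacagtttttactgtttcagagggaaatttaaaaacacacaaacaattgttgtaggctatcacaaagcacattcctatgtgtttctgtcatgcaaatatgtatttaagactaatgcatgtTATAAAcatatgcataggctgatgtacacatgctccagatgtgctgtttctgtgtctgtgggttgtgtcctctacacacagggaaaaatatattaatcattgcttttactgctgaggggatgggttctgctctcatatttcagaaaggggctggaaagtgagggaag
Bgn (chrX:73483351-73483650, plus strand): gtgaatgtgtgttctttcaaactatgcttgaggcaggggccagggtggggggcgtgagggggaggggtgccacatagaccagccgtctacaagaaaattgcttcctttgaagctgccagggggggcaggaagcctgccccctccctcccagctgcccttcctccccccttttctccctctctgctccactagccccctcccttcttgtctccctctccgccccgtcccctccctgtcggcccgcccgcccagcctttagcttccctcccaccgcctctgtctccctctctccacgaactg

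The 5 windows differ in base composition. The dinucleotide CpG occurs 24 times in the Col16a1 window, 4 times in that of Sparc, 32 times in that of P4ha1, 0 times in that of Col3a1 and 9 times in that of Bgn. The median over all 27025 promoter windows is 7, and over the 28 members with a window it is 12. Their GC content is 74.3% for Col16a1, 55.3% for Sparc, 70.3% for P4ha1, 37.7% for Col3a1 and 63.7% for Bgn. TATAAA or its reverse complement TTTATA is present in 4 of 28 members (14.3%) and 14.2% of all windows, and CCAAT or its reverse complement ATTGG in 10 of 28 (35.7%) and 37.9% of all windows. CACCTG or its reverse complement CAGGTG is present in 3 of 28 members (10.7%), Col16a1, Col8a1 and Sparc, and in 20% of all windows. The shares of the members were near or below those of all windows, and the 3 genes that rose do not share one motif.

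Fibrillar collagens ranged widely over the lines. None of the 7 passed the edgeR test in any comparison, and 2 of 7 had an unadjusted p under 0.05 for mutant minus WT, beside 30.5% of all genes. DESeq2 called Col5a1 and Col1a1 for mutant minus WT, beside 23.8% of all genes. For null minus WT it called Col5a1 and Col5a3, beside 11.8%. Their summed level was 765, 90.1 and 375 CPM in mutant 1, 2 and 3, 4.75 and 832 CPM in null 1 and 3, and 1.60 and 7.79 CPM in WT 1 and 2. Col3a1, the chain of type III collagen, had 148, 0.214 and 183 CPM in mutant lines, 0.0913 and 276 CPM in null lines, and 0 and 1.62 CPM in WT lines. Mutant 2 and null 1 thus lay inside the WT range, and neither mutant minus WT (log2 fold change 7.47, SE 3.77, edgeR adjusted p = 0.227) nor null minus WT (7.79, SE 3.87, edgeR adjusted p = 0.302) passed. Without null 3, null minus WT was -2.72 for Col3a1. Col5a2 gives the second chain of type V collagen and had 95.5, 0.902 and 10.7 CPM in mutant lines, 0.0609 and 308 CPM in null lines, and 0.0680 and 1.95 CPM in WT lines. Its log2 fold change of mutant minus WT was 5.42 (SE 3.28, edgeR adjusted p = 0.300), and 2.81 without mutant 1. Col3a1 and Col5a2 are adjacent protein-coding genes on chromosome 1 and shared the same high and low lines, though mutant 3 had far less Col5a2 than mutant 1 and about as much Col3a1.

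Col5a1, the main chain of type V collagen, was the exception within the fibrillar group. It had 133, 85.5 and 66.0 CPM in mutant lines, 3.07 and 162 CPM in null lines, and 0.442 and 0.893 CPM in WT lines, so every mutant and null line lay above both WT lines. The mutant mean was 95 ± 34.7 CPM (SD, n = 3), against 0.668 ± 0.319 CPM in WT lines (n = 2). The log2 fold change was 7.26 for mutant minus WT (SE 1.81, edgeR adjusted p = 0.0590) and 7.05 for null minus WT (SE 1.83, edgeR adjusted p = 0.136), so neither passed in the fit over all 7 lines. Without null 3, null minus WT was 2.31 for Col5a1.

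The RNAs for chains of the same trimer were not present in a fixed proportion. The next values are ratios of CPM per kilobase (kb) of the longest protein-coding transcript in GENCODE M21. Type I collagen is normally built from Col1a1 and Col1a2 chains with Col1a1 in excess. Col1a1 had 42.9, 3.37 and 111 CPM in mutant lines, 1.03 and 34.5 CPM in null lines, and 0.782 and 2.03 CPM in WT lines. Col1a2 had 326, 0 and 1.51 CPM in mutant lines, 0.304 and 10.1 CPM in null lines, and 0.0340 and 1.06 CPM in WT lines.

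Per kb, mutant 1 therefore held 8.43 times as much Col1a2 as Col1a1, while mutant 3 held 66.1 times as much Col1a1 as Col1a2. In mutant 2 Col1a1 was at least 42.7-fold above Col1a2, which had no count beside 142 for Col1a1. The ratio of Col1a1 to Col1a2 was 3.07 in null 1 and 3.09 in null 3, the first on 34 and 10 counts, and 1.73 in WT 2 on 25 and 13 counts. Mutant minus WT gave 5.29 for Col1a1 (SE 2.02, edgeR adjusted p = 0.137) and 8.02 for Col1a2 (SE 4.05, edgeR adjusted p = 0.227) on the log2 scale, and neither passed. The value for Col1a2 rests on mutant 1 and was 0.57 without it.

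The type V chains differed by line as well. Per kb, mutant 1, 2 and 3 had Col5a1 to Col5a2 ratios of 1.1, 74.7 and 4.88, null 3 had 0.413, and WT 2 had 0.361 on 11 and 24 counts. Null 1 and WT 1 had 2 counts of Col5a2 each, beside 101 and 13 of Col5a1. Mutant 2 thus had Col5a1 with very little of its usual partner. Among the remaining fibrillar chains, Col5a3 reached 14.4 CPM in null 3 and 6.0 CPM in mutant 1, and Col11a1 reached 27.6 and 12.5 CPM in the same lines, against at most 0.238 CPM in WT lines for either.

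Type VI collagen forms beaded filaments from Col6a1, Col6a2 and Col6a3 chains. Col6a1 had 64.1, 0.451 and 30.0 CPM in mutant lines, 0.213 and 80.9 CPM in null lines, and 0.0340 and 0.487 CPM in WT lines. Col6a2, its neighbour on chromosome 10, followed the same lines with 15.4, 0.285 and 17.3 CPM in mutant lines, 0.213 and 37.6 CPM in null lines, and 0.0680 and 0.406 CPM in WT lines. Per kb, Col6a1 was 4.71, 1.8 and 1.96 times Col6a2 in mutant 1, 2 and 3 and 2.45 times in null 3. Col6a3 stayed low, at 0.325, 0.0237 and 5.39 CPM in mutant lines, 0 and 4.40 CPM in null lines, and 0 in both WT lines. Col6a1 was 485-fold above Col6a3 per kb in mutant 1, 13.7-fold in mutant 3 and 45.3-fold in null 3.

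**Figure D4:**
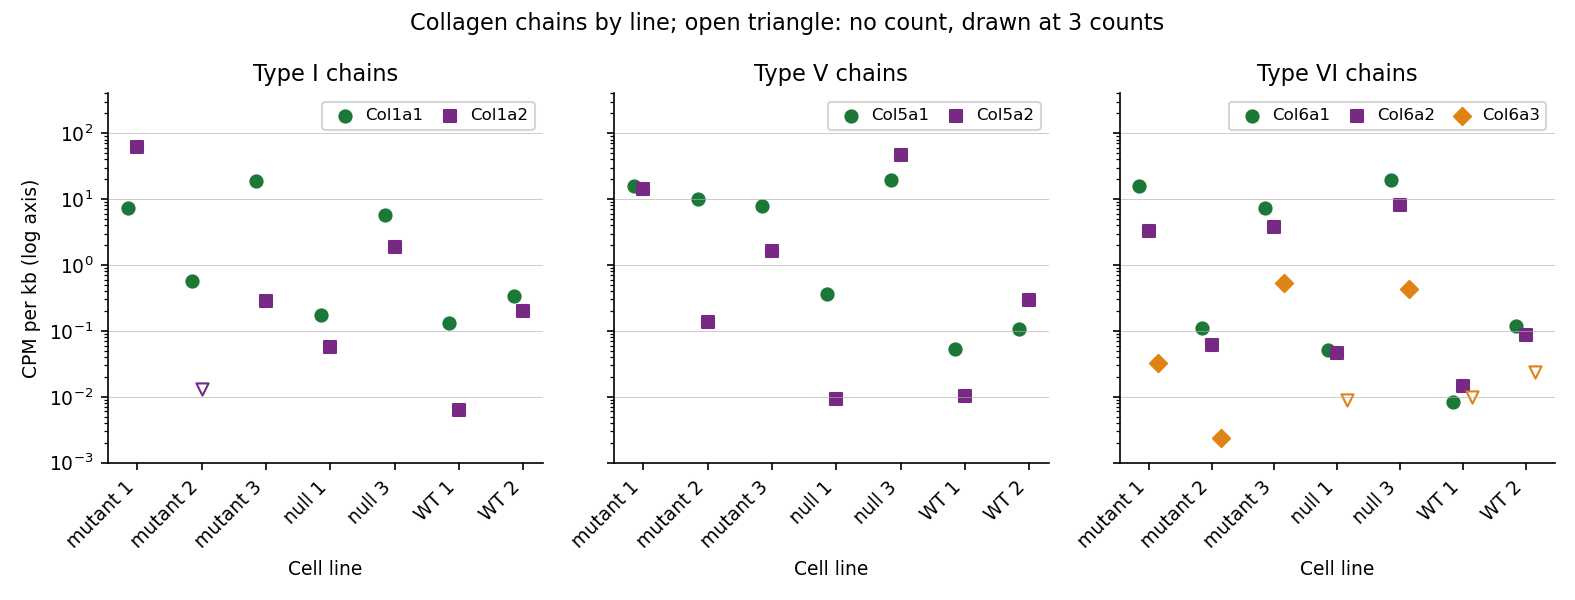
CPM per kb of transcript, on a log axis, of the chains of type I, V and VI collagen in each of the 7 lines, with open triangles at the level of 3 counts where a chain had no count. The order of the 2 type I chains is opposite in mutant 1 and mutant 3, Col5a1 stands far above Col5a2 in mutant 2, and Col6a3 lies below its partners wherever they are abundant.

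Among the other 9 collagens, 8 were tested, and by edgeR 1 passed as higher for mutant minus WT (Col16a1) and none as lower, beside 3.3% and 4.13% of all genes. DESeq2 called Col6a1, Col6a2, Col6a3, Col16a1 and Col18a1 for mutant minus WT, beside 23.8% of all genes. Col18a1, a basement membrane collagen whose end fragment is endostatin, was the most abundant and went the other way. It had 732, 301 and 347 CPM in mutant lines, 395 and 428 CPM in null lines, and 1321 and 1080 CPM in WT lines, so all 5 mutant and null lines lay below both WT lines. The log2 fold change was -1.38 for mutant minus WT (SE 0.383, edgeR adjusted p = 0.0721) and -1.55 for null minus WT (SE 0.435, edgeR adjusted p = 0.148), and neither passed. Col8a1, a short-chain network collagen, was high in WT lines too, with 249, 126 and 190 CPM in mutant lines, 67.5 and 272 CPM in null lines, and 232 and 245 CPM in WT lines. The groups overlapped (mutant minus WT -0.34, SE 0.552, edgeR adjusted p = 0.70).

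Col12a1, which decorates fibril surfaces, had 86.4, 35.7 and 22.6 CPM in mutant lines, 25.8 and 239 CPM in null lines, and 10.48 and 17.5 CPM in WT lines. Every mutant and null line was above both WT lines, but the difference of mutant minus WT, 1.8 on the log2 scale, did not pass (SE 0.987, edgeR adjusted p = 0.260). Col14a1 and Col15a1 were below 2 CPM in all lines. Col14a1 did not pass the filter on low counts and had no count in WT lines.

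Of the 5 proteoglycans 4 were tested and none passed the edgeR test in any comparison. For mutant minus WT, 1 of 4 had an unadjusted p under 0.05, beside 30.5% of all genes. DESeq2 called Dcn and Bgn there, beside 23.8% of all genes. Bgn (biglycan), which binds collagen fibrils, was the most abundant member of this group and either high or nearly silent. It had 891, 0.142 and 588 CPM in mutant lines, 0.791 and 868 CPM in null lines, and 0.102 and 3.49 CPM in WT lines. The mutant and null groups each contain a line inside the WT range, and mutant minus WT was 8.31 (SE 4.03, edgeR adjusted p = 0.213) and null minus WT 8.13 (SE 4.05, edgeR adjusted p = 0.304). Null minus WT for Bgn was -0.93 on the log2 scale without null 3, so that value rests on null 3.

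Vcan (versican), a large hyaluronan-binding proteoglycan, had 92.9, 2.25 and 50.2 CPM in mutant lines, 0.822 and 101 CPM in null lines, and 3.95 and 1.95 CPM in WT lines. Its difference of mutant minus WT was 4.01 (SE 2.12, edgeR adjusted p = 0.245). Dcn (decorin), which wraps and spaces collagen fibrils, was low throughout, with 3.99, 0.831 and 12.8 CPM in mutant lines, 0.183 and 2.81 CPM in null lines, and 0 and 0.162 CPM in WT lines. All mutant and null lines lay above WT for Dcn, yet mutant minus WT did not pass (6.50, SE 2.21, edgeR adjusted p = 0.109). WT held only 2 counts, and the ratio of mutant to WT was 122 with an exact 95% interval of 33.6 to 1010 for counting error only. Lum (lumican), the neighbour of Dcn on chromosome 10, had 1 count in mutant 1 and none in the other lines.

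Matrix glycoproteins had the highest summed CPM of the 6 role groups in every line but WT 1, where the other collagens had more (1567 against 1232 CPM). Of the 7, 1 passed the edgeR test for mutant minus WT (Sparc, above), beside 7.42% of all genes. DESeq2 called Sparc, Thbs2 and Fn1 there, beside 23.8% of all genes. Fn1 (fibronectin) alone took 31.5%, 11.9% and 30.6% of the summed CPM of the 43 genes in mutant lines, 14.6% and 23.1% in null lines, and 3.56% and 6.54% in WT lines. Its level was 3486, 678 and 2263 CPM in mutant lines, 311 and 2305 CPM in null lines, and 133 and 281 CPM in WT lines. No mutant or null line overlapped WT, but mutant 2 and null 1 were far below the other lines of their genotype. Mutant minus WT was 3.37 (SE 1.08, edgeR adjusted p = 0.0964) and null minus WT 2.66 (SE 1.08, edgeR adjusted p = 0.239), the second being 0.59 without null 3.

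Tnc (tenascin-C), a glycoprotein of remodelling stroma, had 959, 623 and 213 CPM in mutant lines, 66.6 and 791 CPM in null lines, and 481 and 1042 CPM in WT lines. The groups overlapped, and mutant minus WT was -0.35 (SE 0.999, edgeR adjusted p = 0.835). Thbs2 (thrombospondin-2), which regulates fibril assembly, had 159, 24.2 and 401 CPM in mutant lines, 6.39 and 113 CPM in null lines, and 0.782 and 2.52 CPM in WT lines. No mutant or null line overlapped WT for Thbs2, and mutant minus WT was 7.0 (SE 1.92, edgeR adjusted p = 0.0705). Its relative Thbs1 had the opposite order, with 575, 241 and 356 CPM in mutant lines, 177 and 407 CPM in null lines, and 575 and 799 CPM in WT lines, mutant 1 and WT 1 being nearly equal.

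Postn (periostin), a fibroblast product that helps crosslink collagen, was found in only 2 lines above 1 CPM. It had 293, 0.0475 and 0.115 CPM in mutant lines, 0.183 and 58.0 CPM in null lines, and 0.136 and 0.406 CPM in WT lines. Mutant 3, rich in Col1a1, Col3a1 and Bgn, thus lacked Postn. Tgfbi, a collagen-binding protein induced by TGF-beta, had 71.2, 75.1 and 22.0 CPM in mutant lines, 18.9 and 9.79 CPM in null lines, and 21.8 and 39.5 CPM in WT lines. Mutant minus null was 1.97 for Tgfbi (SE 0.620, edgeR adjusted p = 0.294), and the mutant lines overlapped WT.

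Elastic fibres combine an elastin core with fibrillin microfibrils and fibulins. Of the 8 genes of this group 7 were tested and none passed the edgeR test in any comparison. DESeq2 called Fbn1 and Fbn2 for mutant minus WT, beside 23.8% of all genes, and for null minus WT, beside 11.8%. An unadjusted p under 0.05 was found for 1 of 7 in mutant minus WT, beside 30.5% of all genes, and for 1 of 7 in null minus WT, beside 20.2%. Eln, elastin itself, was at most 0.0814 CPM in any line, had no count in either WT line and did not pass the filter. Fbn1 (fibrillin-1) was nevertheless present, with 45.8, 1.21 and 58.3 CPM in mutant lines, 0.122 and 98.3 CPM in null lines, and 0.17 and 0.650 CPM in WT lines. Null 1 lay below both WT lines, and mutant minus WT was 6.62 (SE 2.92, edgeR adjusted p = 0.180). Fbn2 had 3.84, 0.332 and 4.29 CPM in mutant lines, 0.122 and 8.47 CPM in null lines, and no count in WT lines. With WT set to 3 counts over the group, the group level was at least 40.2-fold higher in mutant lines and at least 53.3-fold higher in null lines, but mutant 2 held 14 counts and null 1 only 4, beside 223 in null 3.

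Fbln5, which links elastin to microfibrils, had 63.6, 0.926 and 24.6 CPM in mutant lines, 2.46 and 61.1 CPM in null lines, and 1.36 and 2.03 CPM in WT lines. Mutant 2 was below WT, and mutant minus WT was 4.15 (SE 1.96, edgeR adjusted p = 0.203). Fbln2, a fibulin of vessel walls and basement membranes, was high in all 7 lines, with 624, 791 and 450 CPM in mutant lines, 465 and 981 CPM in null lines, and 597 and 372 CPM in WT lines. Its groups overlapped (mutant minus WT 0.36, SE 0.404, edgeR adjusted p = 0.570). Mfap2 and Mfap5, microfibril proteins, were below 2 CPM in every line.

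Among the 7 genes for collagen-modifying enzymes and the chaperone, 1 passed the edgeR test for mutant minus WT (P4ha1), beside 7.42% of all genes, and 3 had an unadjusted p under 0.05, beside 30.5%. DESeq2 called Lox, Loxl3, P4ha1 and Serpinh1 for mutant minus WT, beside 23.8% of all genes. It called all of these but Serpinh1 for null minus WT, beside 11.8%. Serpinh1, which encodes Hsp47, had 592, 1272 and 714 CPM in mutant lines, 275 and 606 CPM in null lines, and 213 and 264 CPM in WT lines. As with Sparc, mutant 2 was the highest line. For Serpinh1 no mutant or null line overlapped WT, although mutant and null lines overlapped each other, and mutant minus WT was 1.85 (SE 0.467, edgeR adjusted p = 0.0599) and null minus WT 0.88 (SE 0.481, edgeR adjusted p = 0.336). Lox (lysyl oxidase), which starts collagen crosslinking, had 381, 13.8 and 354 CPM in mutant lines, 0.670 and 715 CPM in null lines, and 0.0680 and 2.44 CPM in WT lines.

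Null 1 lay between the WT lines for Lox, while mutant 2 lay above both. Mutant minus WT was 7.92 (SE 3.21, edgeR adjusted p = 0.154) and null minus WT 8.44 (SE 3.32, edgeR adjusted p = 0.229), the second being -0.57 without null 3. Loxl1, Loxl2 and Loxl3 were each highest in null 3 or mutant 3 and below 2 CPM in mutant 2, null 1 and WT lines. P4ha2, the second prolyl hydroxylase subunit, had 47.7, 38.8 and 36.9 CPM in mutant lines, 55.7 and 69.1 CPM in null lines, and 60.0 and 34.8 CPM in WT lines. Unlike P4ha1, its mutant and WT lines overlapped.

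Outside the 43, of 23 tested genes for collagen processing, 2 rose in mutant lines over WT and none fell, beside 3.3% and 4.13% of all genes. Fkbp14, a prolyl isomerase of the endoplasmic reticulum, had 12.7, 13.6 and 16.3 CPM in mutant lines, 5.99 and 7.59 CPM in null lines, and 1.02 and 0.974 CPM in WT lines (mutant minus WT 3.83, SE 0.365, edgeR adjusted p = 0.0127). Plod1, a lysyl hydroxylase, had 40.01, 43.0 and 44.6 CPM in mutant lines, 36.9 and 47.2 CPM in null lines, and 13.1 and 7.47 CPM in WT lines (mutant minus WT 2.04, SE 0.291, edgeR adjusted p = 0.0229). Null minus WT was 2.76 for Fkbp14 and 2.02 for Plod1, with edgeR adjusted p of 0.0645 and 0.0735. None of the 23 passed for null minus WT by edgeR (8 with an unadjusted p under 0.05, beside 20.2% of all genes) or for mutant minus null (4, beside 14%).

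Of 29 other matrix genes tested, 1 rose in mutant lines over WT and none fell, with 15 at an unadjusted p under 0.05, beside 30.5% of all genes. It was Wisp1, a secreted target of Wnt signalling, with 84.9, 169 and 28.4 CPM in mutant lines, 56.4 and 55.9 CPM in null lines, and 2.72 and 2.76 CPM in WT lines (mutant minus WT 5.10, SE 0.811, edgeR adjusted p = 0.0261). None of the 21 collagen receptor and TGF-beta genes passed by edgeR for mutant minus WT, with 8 at an unadjusted p under 0.05, beside 30.5% of all genes. Itga2, the collagen-binding integrin chain, had a value of -3.33 (SE 0.826, edgeR adjusted p = 0.0587) and Tgfb3, a TGF-beta ligand, of 7.27 (SE 1.81, edgeR adjusted p = 0.0590). Tgfb3 had 31.6, 4.44 and 27.1 CPM in mutant lines, 1.49 and 24.98 CPM in null lines, and 0.0680 and 0.244 CPM in WT lines, with mutant 1, mutant 3 and null 3 the highest lines.

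Markers of other cell types were read beside these values. The 13 fibroblast markers outside the matrix genes summed to 538, 743 and 1395 CPM in mutant lines, 30.7 and 513 CPM in null lines, and 28.4 and 36.1 CPM in WT lines, and 3 of 13 (Pdgfrb, Fap and Dpt) had no count in WT lines. Of the 10 tested, 1 (Twist1) rose in mutant lines over WT, beside 3.3% of all genes. Pdgfrb had 24.3, 0.0712 and 17.1 CPM in mutant lines and 0.152 and 60.0 CPM in null lines. Prrx1, a mesenchymal transcription factor, had 43.8, 0.403 and 9.80 CPM in mutant lines, 0.0913 and 107 CPM in null lines, and 0 and 0.325 CPM in WT lines. Both were thus high in the lines with high collagen and low in mutant 2 and null 1. Pdgfra, Cd34, Lsp1 and Dpt were likewise lowest in mutant 2 and null 1 among the mutant and null lines. Twist1, Twist2 and S100a4 were not. Twist1 had 31.2, 54.5 and 36.8 CPM in mutant lines. S100a4 had 85.8 CPM in mutant 2, against 4.75 CPM in null 3. Twist2 had 15.6 CPM in mutant 2, against 6.9 CPM in mutant 1 and 5.66 CPM in null 3. Thy1, Fap and Pi16 stayed below 1 CPM in every line. Vim (vimentin) had 343, 577 and 825 CPM in mutant lines, 2.71 and 225 CPM in null lines, and 0.646 and 3.41 CPM in WT lines, so mutant 2 combined high Vim with low Col3a1 and Bgn.

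The 9 muscle markers summed to 822, 641 and 167 CPM in mutant lines, 29.3 and 439 CPM in null lines, and 152 and 280 CPM in WT lines, and 2 of 9 had no count in WT lines. Most of each sum was Acta2. It had 768, 625 and 157 CPM in mutant lines, 28.3 and 350 CPM in null lines, and 151 and 279 CPM in WT lines, so its groups overlapped. The myogenic factor Myod1 had 23.0 CPM in null 3, 0.610 CPM in mutant 1 and no count in the other lines. The 7 endothelial markers summed to at most 2.16 CPM in any line. The 7 leukocyte markers summed to between 22.9 and 91.9 CPM, nearly all of it Cd68, while Ptprc was at most 0.0609 CPM and Cd3e had no count. The 12 stratified epithelial markers summed to 14020, 13390 and 10360 CPM in mutant lines, 11750 and 9688 CPM in null lines, and 35390 and 46020 CPM in WT lines. Of these 12, Krt5, Krt13 and Epcam fell in mutant lines over WT and none rose, beside 4.13% and 3.3% of all genes. The part of fibroblast-type or muscle-type transcripts in the matrix levels was not tested.

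The 4 transcription factors of epithelial-mesenchymal transition summed to 289, 203 and 266 CPM in mutant lines, 145 and 205 CPM in null lines, and 125 and 160 CPM in WT lines, and 2 of 4, Zeb1 and Zeb2, rose in mutant lines over WT, beside 3.3% of all genes. Snai2 was the largest part of that sum in every line and did not rise. It had 183, 82.0 and 126 CPM in mutant lines, 133 and 114 CPM in null lines, and 121 and 155 CPM in WT lines. Its mutant minus WT value was -0.08 (SE 0.328, edgeR adjusted p = 0.881). Zeb1 had 28.9, 53.6 and 53.7 CPM in mutant lines, 0.274 and 6.23 CPM in null lines, and 0.0340 and 0.162 CPM in WT lines. Snai1 had 10.4, 0.0475 and 2.78 CPM in mutant lines, 0.274 and 15.9 CPM in null lines, and 0 and 0.0812 CPM in WT lines. Mutant 2 was thus among the highest lines for Zeb1 and at the WT level for Snai1.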

How the data were processed

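RNA from 7 mouse esophageal epithelial lines (3 mutant, 2 null, 2 WT) had been extracted with RNeasy columns and sequenced from TruSeq Stranded mRNA libraries, per the labels' protocols. The authors deposited raw read counts per gene symbol. The submitters' processing notes name STAR 2.5.1b and mm9. The sources used here do not give the counting tool, its strand setting or the annotation. Overlapping or near-identical genes may share reads. The 92 spike-in names, whose counts are all 0, were left out, and 27 names altered to dates stayed under those names.

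Counts were fitted with edgeR 4.0.16 (quasi-likelihood F test, TMM scaling, filterByExpr by group, R 4.3.3) in 1 fit of all 7 lines, which left 13768 genes. Benjamini-Hochberg adjustment ran over all of them with a threshold of 0.05. The SE is the log2 fold change divided by the root of F. Common biological variation was 0.485. CPM are TMM-scaled. Floors are 3 counts, and intervals and floors cover counting error only.

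Members and lists were chosen with earlier results of these data known. Values are given for members called in any comparison and the 3 of each role group with the highest mean CPM. From the other lists come up to 4 called genes, or else the 2 with the smallest p. Further members, markers and list genes (Col1a1, Col1a2, Col6 chains, Postn, Thbs1, Thbs2, Tgfbi, P4ha2 and others) were named after their values were seen. Alternatives used DESeq2 1.42.0 and limma-voom 3.58.1, other scaling, no filter, only the groups compared, a replicate block and leaving out each line. The test was first checked on simulated data with the same biological variation, 0.485, for every gene. Of 4-fold changes 19% to 28% were called in the 3 comparisons, and of 16-fold changes 96% to 100%. Genes that vary more than this within a group were not simulated. Replicates differed beyond sampling noise. Transcript lengths are from GENCODE M21, and promoter windows from RefSeq GRCm38.p6, matched by symbol for 28 of 43 members.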

Additional observations from a re-analysis of the deposited data

How the results depend on the processing

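All values are numbers called, by edgeR unless another tool is named. For mutant against WT, 3 members and 1022 genes were called. DESeq2 called 18 members (17 higher, 1 lower) and 3198 genes. Limma-voom called 2 members and 743 genes, without Col16a1 (limma-voom adjusted p = 0.0751). Without a filter 6 members and 1136 genes passed, and with only the groups compared 7 members and 1521 genes. Leaving out each line gave 0 to 7 members and 0 to 1420 genes, with 37 genes without mutant 2, 6 without mutant 3 and 0 without WT 1 or WT 2, where 2840 and 2207 had an unadjusted p under 0.05. For null against WT, 0 members and 19 genes were called. DESeq2 called 13 members and 1549 genes, limma-voom 0 genes (2155 at an unadjusted p under 0.05), and the fit without a filter 1 member (Col16a1) and 77 genes. Leaving out lines gave 0 to 1 member (Col5a1, without null 1) and 0 to 55 genes, with 8 without mutant 2, 3 without mutant 3, 55 without null 1 and 0 without null 3, WT 1 or WT 2 (2189, 2147 and 1126 at an unadjusted p under 0.05). For mutant against null, 0 members and 0 genes were called, 1924 genes having an unadjusted p under 0.05. DESeq2 called 1 member (Tgfbi) and 604 genes, RLE scaling 1 gene, the fit without a filter 2, and leaving out lines 0 to 22 (22 without null 3) with 0 members.

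Labels give the groups shared numbers, and deviations of same-numbered lines from their group means correlated between -0.36 and 0.149. With so few lines in a group, these correlations cannot decide whether the numbers pair the lines. With the replicate block 0 members (8 at an unadjusted p under 0.05) and 0 genes (2887) were called for mutant against WT, and 0 genes (1454) for null against WT. Under the block Bgn had -0.37 for null minus WT on the log2 scale.

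Over the settings that leave out a line, null minus WT ran between -2.72 and 15.32 for Col3a1, -0.93 and 12.00 for Bgn and -0.57 and 12.28 for Lox. The low ends were without null 3. The high ends were without WT 2, and WT 1 held 0 counts of Col3a1, 3 of Bgn and 2 of Lox. These high values thus rest on few or no WT reads and do not measure the size of a change. Tnc ran between -0.89 and 0.31 for mutant minus WT, and Col16a1 between -0.37 and 0.40 for mutant minus null. Over 13 alternatives Sparc and P4ha1 passed in 8 (adjusted p 1.02e-13 to 0.203 and 5.77e-09 to 0.176) and Col16a1 in 7 (2.39e-11 to 0.177), with log2 fold changes of 4.42 to 5.37, 1.02 to 1.12 and 3.62 to 5.20. The cause of these changes was not tested. Counts of a few reads in WT 1 or WT 2, the second being the shallowest line, limit every fold change against WT of genes near 0 in those lines.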

Other observations

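Several matrix genes outside the 43 were far more abundant in 1 line than in the rest, while Efemp1 had another order. These genes were named with their values known. None of those named here passed the edgeR test in any comparison. Col8a2, the partner chain of Col8a1, had 131, 0.0949 and 0.964 CPM in mutant 1, 2 and 3, 0.304 and 1.22 CPM in null 1 and 3, and 0.0340 and 0 CPM in WT 1 and 2. Omd (osteomodulin) had 41.1, 0.214 and 2.23 CPM in mutant lines, 0.0609 and 0.228 CPM in null lines, and 0 in both WT lines. Ogn (osteoglycin), a leucine-rich proteoglycan like Omd, had 84.8, 0.166 and 9.02 CPM in mutant lines, 0.0609 and 5.66 CPM in null lines, and 0 and 0.0812 CPM in WT lines. Mutant 1 was the highest line for all 3. Wisp2 stood out in null 3 instead, with 54.9 CPM there and 0.0913 CPM in null 1, 2.12, 0 and 0.344 CPM in mutant lines, and 0 in both WT lines. Efemp1, a fibulin, had 16.4, 44.6 and 79.8 CPM in mutant lines, 0.213 and 8.24 CPM in null lines, and 43.7 and 46.4 CPM in WT lines, so null 1 and null 3 were the lowest lines.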
